A study of Mus musculus with 18 samples.

Results

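Polycomb group genes encode the subunits of 2 chromatin complexes, and 10 of them were followed here by name: Ezh1, Ezh2, Eed and Suz12 of Polycomb repressive complex 2 (PRC2), and Ring1, Rnf2, Bmi1, Cbx7, Cbx8 and Cbx2 of Polycomb repressive complex 1 (PRC1). They are 10 of the 24421 gene symbols in the deposited count table, and all 10 were among the 12808 genes tested. RNA was sequenced from LT-HSCs, ST-HSCs and bulk-HSCs of young and aged Hoxb5-tri-mCherry mice, in 6 groups of 3 libraries (18 in total). The young donors were aged 2 to 3 months and the old donors 23 to 25 months, all on a C57BL/6J background and all carrying the reporter allele, in which mCherry is read out from the Hoxb5 locus. Bulk-HSCs are the whole surface-marker gate of hematopoietic stem cells (HSCs), LT-HSCs its Hoxb5+ cells and ST-HSCs its Hoxb5- cells, so the mCherry gate defined the last pair and bulk-HSCs overlap with both. The sources do not say whether the 3 libraries of a group came from separate mice, so p-values measure the spread between libraries, which may be technical.

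PRC2 methylates histone H3 through Ezh1 or Ezh2, its alternative catalytic subunits, while Eed binds the mark and Suz12 holds the complex together. PRC1 ubiquitinates histone H2A through Ring1 or Rnf2, with Bmi1 as a partner of the catalytic subunit, and the Cbx proteins read the mark that PRC2 leaves. In blood stem cells these genes are known for keeping lineage and cell cycle inhibitor genes silent, with Bmi1 long known to be needed for self-renewal.

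The libraries held 16495048 to 22973844 gene counts, and levels are given as CPM, the usual depth-scaled count, here with factors from the trimmed mean of M values (TMM). A level of 3 counts, used as the detection floor, equals 0.131 to 0.182 CPM and covers counting error only. HSC markers added up to between 3753 and 5001 CPM in a library, with all 10 of the list detected well enough to be tested and Kit the highest. Hoxb5 itself ran from 8.20 to 40.3 CPM in the LT-HSC libraries and from 0 to 4.56 CPM in the ST-HSC libraries. Of the markers of other blood cells, Mpo, Ctsg, Ms4a1, Cd3e and Cd8a were at 0 counts in every library. Erythroid markers added up to 0.996 to 152 CPM with Car1 highest, neutrophil and monocyte markers to 149 to 309.5 CPM with Lyz2 highest, and lymphoid markers to 0 to 19.3 CPM with Nkg7 highest. Markers of multipotent progenitors added up to 114 to 339 CPM in young and 63.7 to 149 CPM in aged libraries, with Cd34 highest. Among 9653 well covered genes (median count 200 or more), young LT-HSC replicate 3 had 163 at 0 counts and young ST-HSC replicate 3 had 160. The other young libraries had 1 to 67 such genes and the aged libraries 2 to 6. Apart from young LT-HSC replicate 2, with 1, every young library had 10 or more, above all aged libraries. This difference runs along with age, and its part in the age effects was not tested. Young LT-HSC replicate 3 and young ST-HSC replicate 3 are called the 2 sparse libraries here. Results that change without them are also given without them, an alternative chosen after the data were seen.

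The promoters of Ezh1 and Ezh2 are printed first, because these paralogs had the highest and the lowest of the 10 log2 fold changes with age averaged over fractions, though not within each fraction. RefSeq (GRCm38.p6) held the promoter, taken as 250 bases before to 50 bases after the start, of 9 of the 10 genes, all but Cbx2. Both genes lie on the minus strand (mm10, GENCODE M21), Ezh1 at chr11:101191115-101226463 and Ezh2 at chr6:47530139-47595341. The printed windows are chr11:101226414-101226713 and chr6:47594981-47595280, and the sequences run from 5′ to 3′ on that strand. The start used is that of RefSeq. GENCODE has Ezh2 begin at 47595341, before the whole printed window on the minus strand, so the sources differ in its start. Capitals mark a match to the E2F motif TTTNGCGC, searched on both strands.
Ezh1: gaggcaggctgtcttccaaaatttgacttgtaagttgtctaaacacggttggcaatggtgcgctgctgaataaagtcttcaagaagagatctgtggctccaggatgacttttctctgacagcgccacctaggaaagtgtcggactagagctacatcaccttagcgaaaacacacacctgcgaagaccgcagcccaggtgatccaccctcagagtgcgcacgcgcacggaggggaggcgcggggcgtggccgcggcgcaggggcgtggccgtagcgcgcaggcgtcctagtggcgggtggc
Ezh2: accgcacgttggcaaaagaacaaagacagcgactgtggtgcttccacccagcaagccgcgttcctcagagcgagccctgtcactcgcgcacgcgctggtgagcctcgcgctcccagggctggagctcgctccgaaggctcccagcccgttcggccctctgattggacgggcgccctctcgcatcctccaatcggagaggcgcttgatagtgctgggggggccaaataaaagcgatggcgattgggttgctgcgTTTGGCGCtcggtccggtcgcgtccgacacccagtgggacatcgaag
The match in the Ezh2 window is TTTGGCGC, which begins 3 bases after the RefSeq start. It was the only match among the 9 windows, and 452 of 32851 promoters of this length (1.38%) held the motif. E2F factors are regulators of genes needed for DNA replication. The Ezh1 window held 23 CG dinucleotides and the Ezh2 window 31, within the range of 17 in Eed to 41 in Suz12, against a median of 7 over all promoters.

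Levels can be compared between genes only per length. Divided by the longest transcript of each gene, Bmi1 had the highest median over the 18 libraries at 24.8 CPM per kilobase, followed by Ezh1 at 24.6, Suz12 at 23.7, Rnf2 at 22.3 and Eed at 22.3. These 5 neighbours overlapped widely between libraries, with Bmi1 between 17.002 and 30.4 CPM per kilobase and Suz12 between 14.2 and 31.8. Ezh2 followed at 15.5 and Cbx7 at 13.1 CPM per kilobase. Ring1 at 9.38, Cbx2 at 6.53 and Cbx8 at 2.08 CPM per kilobase were lowest. Divided instead by the union of all exons, Ezh1 stood at 13.9 and Ezh2 at 6.46 CPM per kilobase and the order ran Bmi1, Suz12, Rnf2, Ezh1, Cbx7, Eed, Ring1, Ezh2, Cbx2, Cbx8. The place of Bmi1 at the top and of Cbx2 and Cbx8 at the bottom was the same in both orders. Raw counts ran from 583 to 3107 per library for the PRC2 genes. Cbx8 had 0 to 349 counts, with the 0 in young LT-HSC replicate 3.

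**Figure D1:**
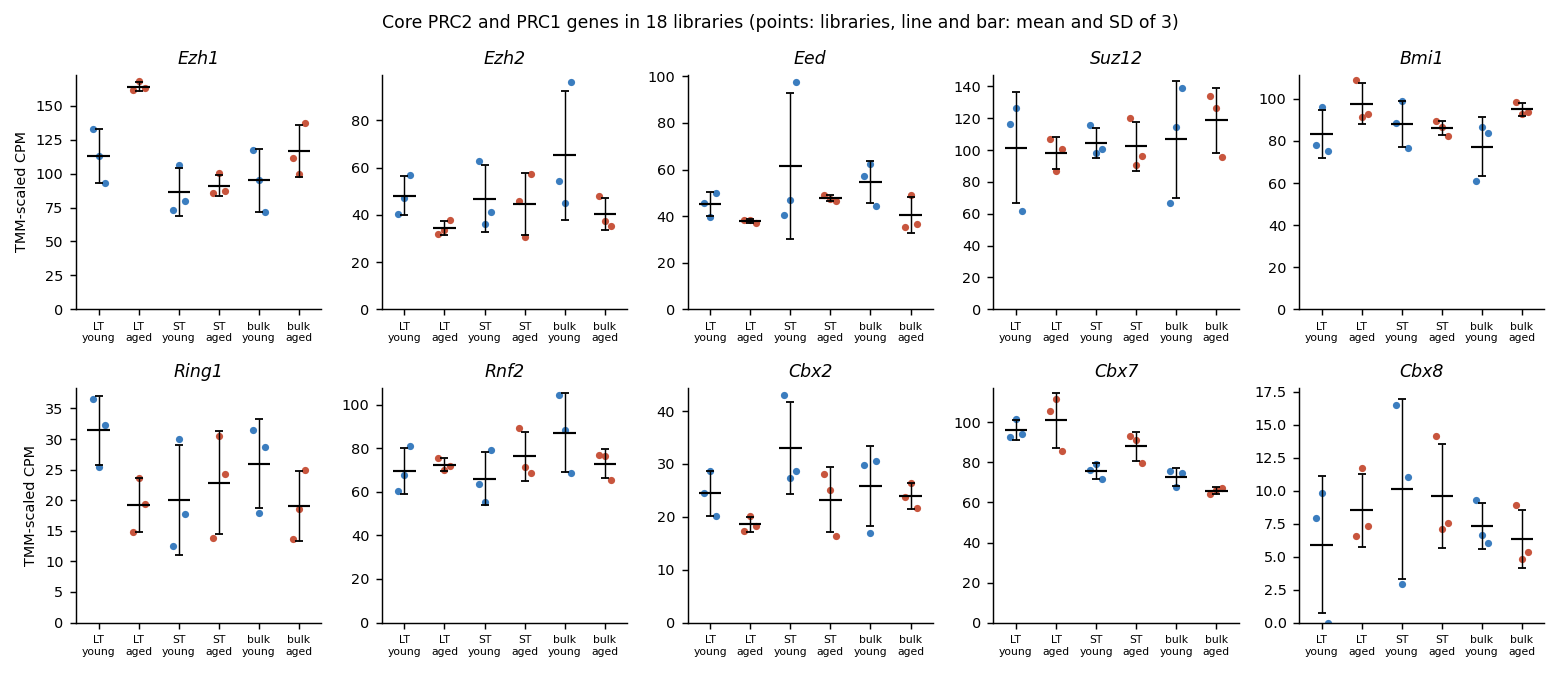
Levels of the 10 genes in TMM-scaled CPM (vertical axes, from 0), with 1 panel per gene and the 6 groups on the horizontal axes. Points are libraries (young blue, aged red), lines are means and bars the SD of 3 libraries. The 3 aged LT-HSC libraries stand above every other library for Ezh1, and the bulk-HSC libraries below every LT-HSC library for Cbx7.

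With age, none of the 10 genes passed the test, whether averaged over the fractions or within LT-HSCs, ST-HSCs or bulk-HSCs (edgeR quasi-likelihood test, Benjamini-Hochberg adjusted p under 0.05). Of all 12808 genes, 6.75% passed for the average, 0.445% within LT-HSCs, 0.851% within ST-HSCs and 1.98% within bulk-HSCs. DESeq2 called 0 of the 10 in each of these comparisons as well. At an unadjusted p under 0.05 there were 3 of the 10 in the average, which were Ezh1, Ezh2 and Eed, 1 within LT-HSCs, 0 within ST-HSCs and 1 within bulk-HSCs. At that threshold 2519 of the 12808 genes stood for the average, and 1129, 1238 and 1698 within the fractions in the same order, so the counts of the 10 genes were near the background. The median log2 fold change of the 10 genes was 0.014, with 6 above and 4 below 0, beside a median of 0.037 over all genes tested. The age effect did not pass the test of a difference between any pair of fractions for any of the 10 genes with edgeR or DESeq2, with 0 at an unadjusted p under 0.05 in each of the 3 comparisons. Of all genes, 0% passed for LT-HSCs against ST-HSCs, 0.00781% for LT-HSCs against bulk-HSCs and 0.0625% for ST-HSCs against bulk-HSCs.

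Ezh1, the catalytic subunit that prevails in non-dividing cells, had its highest levels in aged LT-HSCs. The aged LT-HSC libraries had 162, 168 and 163 CPM, and the young LT-HSC libraries 133, 113 and 93.2 CPM (164 ± 3.47 and 113 ± 19.7 CPM, SD, n = 3). The highest value in any of the other 15 libraries was 137 CPM, in aged bulk-HSC replicate 3, so the aged LT-HSC libraries overlapped with no other library. Aged ST-HSCs had 86.1, 100.3 and 87.5 CPM, and young ST-HSCs 73.0, 106 and 80.0 CPM. The ages overlapped in ST-HSCs, and in bulk-HSCs as well, where the libraries ran from 100.02 to 137 CPM in aged and from 71.8 to 118 CPM in young mice. Averaged over fractions, the log2 fold change with age was 0.30 (SE 0.11, adjusted p = 0.117), and within LT-HSCs it was 0.54 (SE 0.19, adjusted p = 0.335). Left out in turn, young bulk-HSC replicate 1 was the only library whose absence took the average past the threshold (adjusted p = 0.0482).

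Between fractions, Ezh1 was the only one of the 10 genes to pass the test of LT-HSCs against ST-HSCs over both ages. It was higher in LT-HSCs by a log2 fold change of 0.62 (SE 0.13, edgeR adjusted p = 0.0363), or 1.53-fold, in a comparison in which 0.812% of all genes passed. Its LT-HSC and ST-HSC libraries overlapped when the ages were pooled, since young LT-HSC replicate 3 had 93.2 CPM and young ST-HSC replicate 2 had 106 CPM. The former is a sparse library. Without the 2 sparse libraries the lowest LT-HSC value was 113 CPM, above the highest ST-HSC value of 106 CPM. This call depended on the libraries: it was lost in 10 of the 12 fits that each left out 1 LT-HSC or ST-HSC library, with adjusted p up to 0.108, and held without young LT-HSC replicate 3 or without young ST-HSC replicate 2. Without the 2 sparse libraries the log2 fold change was 0.65 and the adjusted p 0.0516. The log2 fold change stayed between 0.55 and 0.71 over all 23 alternatives. In aged mice alone it was 0.85 (SE 0.19, edgeR adjusted p = 0.280, DESeq2 adjusted p = 0.00326) and in young mice alone 0.39 (SE 0.19, adjusted p = 0.496). The difference between these values, 0.46 (SE 0.27), did not pass its own test (adjusted p = 0.9999). Against bulk-HSCs, LT-HSCs had a log2 fold change of 0.37 in Ezh1 (SE 0.13, adjusted p = 0.358).

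Ezh2, the catalytic subunit of dividing cells, lay lower in aged than in young LT-HSC libraries without overlap. The values were 31.8, 33.7 and 37.8 CPM in aged LT-HSCs and 40.4, 47.0 and 57.1 CPM in young LT-HSCs. In ST-HSCs the ages overlapped, from 30.8 to 57.2 CPM in aged and from 36.3 to 62.9 CPM in young libraries. The aged bulk-HSC libraries had 35.2 to 47.9 CPM of Ezh2 and the young ones 44.9 to 96.2 CPM, with the highest value of the series in young bulk-HSC replicate 3. The log2 fold change with age averaged over fractions was −0.42 (SE 0.17, adjusted p = 0.166), with −0.48 (SE 0.29) in LT-HSCs, −0.07 (SE 0.29) in ST-HSCs and −0.70 (SE 0.29) in bulk-HSCs. Comparing LT-HSCs with ST-HSCs, it was −0.17 (SE 0.21, adjusted p = 0.932).

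Eed and Suz12, the other PRC2 core subunits, passed no test. Eed had 38.4, 38.1 and 37.0 CPM in aged LT-HSCs and 45.6, 39.8 and 50.1 CPM in young LT-HSCs, without overlap. Young ST-HSC replicate 3, a sparse library, had 97.4 CPM of Eed, while the other ST-HSC libraries had 40.5 to 49.1 CPM. The log2 fold change of Eed with age averaged over fractions was −0.35 (SE 0.15, adjusted p = 0.1997), and −0.16 (adjusted p = 0.484) without the 2 sparse libraries. Suz12 had 87.1 to 107 CPM in aged and 62.0 to 126 CPM in young LT-HSCs, with overlap in all fractions and a log2 fold change with age of 0.02 (SE 0.15). The value of 62.0 CPM was in young LT-HSC replicate 3, a sparse library. Without the 2 sparse libraries the aged LT-HSC libraries all lay below the young ones. Exons of Eed overlap those of E230029C05Rik on the opposite strand, and those of Ezh2 and Suz12 overlap Gm26625 and Gm26563. The use of strand in counting is not stated, so reads of such partners cannot be told apart. E230029C05Rik itself was listed with 0 counts in 17 libraries and 21 counts in young bulk-HSC replicate 2, against 694 to 1717 counts of Eed.

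Ring1 and Rnf2, the paralogous ubiquitin ligases of PRC1, had unequal levels. Ring1 had 14.8, 23.6 and 19.4 CPM in aged LT-HSCs and 36.6, 25.4 and 32.3 CPM in young LT-HSCs. The ages did not overlap in that fraction, but they overlapped in ST-HSCs and bulk-HSCs. Ring1 had a log2 fold change with age of −0.71 (SE 0.38, adjusted p = 0.656) in LT-HSCs, 0.19 (SE 0.38) in ST-HSCs and −0.45 (SE 0.38) in bulk-HSCs. Rnf2 stayed between 55.3 and 104 CPM in all libraries, with a log2 fold change of 0.0038 (SE 0.11) with age averaged over fractions and −0.00029 (SE 0.13) between LT-HSCs and ST-HSCs. Exons of Rnf2 overlap those of Trmt1l on the opposite strand, which had a log2 fold change with age of −0.07 (SE 0.15).

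Bmi1 had 91.4 to 109 CPM in LT-HSCs, 82.4 to 89.3 CPM in ST-HSCs and 92.8 to 98.5 CPM in bulk-HSCs of aged mice. Young libraries had 75.2 to 96.2, 76.6 to 98.8 and 61.1 to 86.5 CPM in the same order. The aged bulk-HSC libraries all lay above the young ones, while the ages overlapped in the other fractions. For Bmi1 the log2 fold change with age was 0.17 (SE 0.09, adjusted p = 0.335) averaged over fractions, and between LT-HSCs and ST-HSCs it was 0.05 (SE 0.11).

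Cbx7 (chr15:79915807-79971119, minus strand), a Cbx protein associated with stem cell maintenance, separated LT-HSCs from bulk-HSCs. Its LT-HSC libraries had 92.8, 101.8 and 94.1 CPM in young and 106, 112 and 85.7 CPM in aged mice. Its bulk-HSC libraries had 75.8, 67.7 and 74.7 CPM in young and 64.1, 66.2 and 67.4 CPM in aged mice. All 6 LT-HSC libraries lay above all 6 bulk-HSC libraries, which 0.5% of all genes did in either direction and no other of the 10 genes. The log2 fold change was 0.51 (SE 0.095, edgeR adjusted p = 0.0327), or 1.42-fold, in a comparison in which 0.195% of all genes passed. The call was lost without young bulk-HSC replicate 2 (adjusted p = 0.0528) and without aged LT-HSC replicates 1 or 2 or any aged bulk-HSC library (adjusted p = 0.0856 to 0.121), at log2 fold changes from 0.47 to 0.52. For Cbx7 the value between LT-HSCs and ST-HSCs was 0.27 (SE 0.095, edgeR adjusted p = 0.285). Between ST-HSCs and bulk-HSCs it was 0.24 (SE 0.095, edgeR adjusted p = 0.629). Bulk-HSCs hold both sorted fractions, and a mix of these would lie between them. The aged bulk-HSC libraries lay below every aged ST-HSC library as well (64.1 to 67.4 against 79.8 to 93.1 CPM). In young mice bulk-HSCs and ST-HSCs overlapped (67.7 to 75.8 and 71.6 to 79.3 CPM). Whether the difference belongs to LT-HSCs or to the bulk-HSC libraries was not tested. The exons of Cbx7 overlap those of Apobec3 on the opposite strand, whose log2 fold change between LT-HSCs and bulk-HSCs was 0.26 (SE 0.11, adjusted p = 0.466). Its part in the result was not tested.

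The remaining readers, Cbx2 and Cbx8, were the lowest of the 10 genes per length. Cbx2 had 17.3 to 20.2 CPM in aged and 20.1 to 28.7 CPM in young LT-HSCs, overlapping by less than 1 CPM, and its log2 fold change with age averaged over fractions was −0.34 (SE 0.17, adjusted p = 0.299). Without the 2 sparse libraries the ages did not overlap in LT-HSCs for Cbx2. The highest Cbx2 value, 43.1 CPM, was in young ST-HSC replicate 1. Cbx8 ran from 0 to 16.5 CPM with large gaps between libraries of a group, for example 2.90 to 16.5 CPM in young ST-HSCs. Its SE was 0.61 for the log2 fold change with age of 0.08, the widest SE among the 10 genes.

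**Figure D2:**
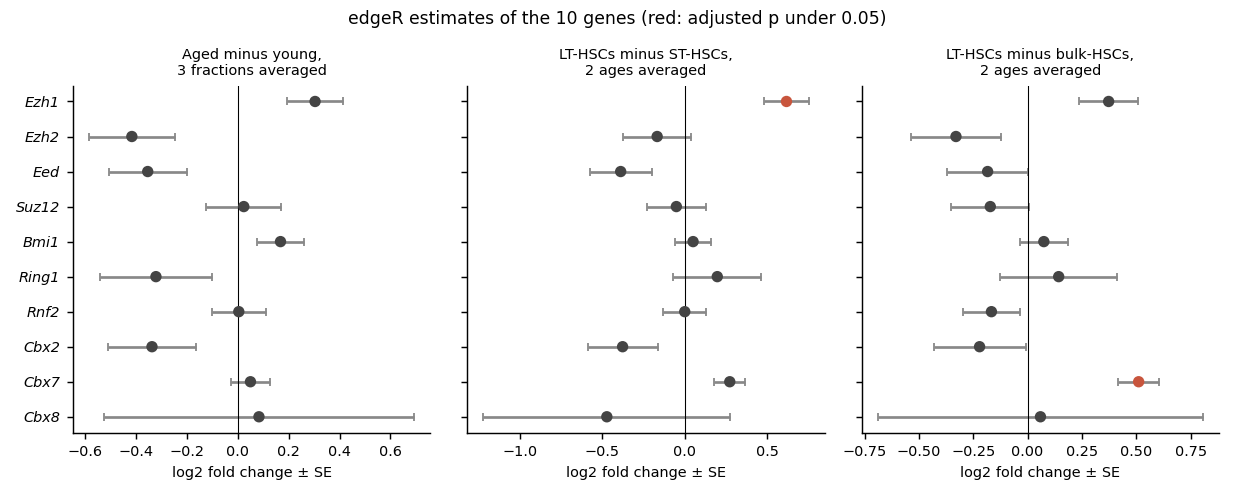
Log2 fold changes (horizontal axes) of the 10 genes with their SE as bars, from the edgeR fit, for aged against young, LT-HSCs against ST-HSCs and LT-HSCs against bulk-HSCs. The points in red passed an adjusted p of 0.05, which are Ezh1 at 0.62 in the middle panel and Cbx7 at 0.51 in the right panel.

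Counted over the 10 genes, the libraries of the 2 ages did not overlap for 4 in LT-HSCs, where Ezh1 was higher and Ezh2, Eed and Ring1 lower in aged mice. In the same fraction 16.1% of all genes did not overlap. In ST-HSCs this held for Cbx7 alone, higher in aged mice, where 17.8% of all genes did not overlap. In bulk-HSCs it held for Bmi1, higher, and Cbx7, lower, and 22.7% of all genes did not overlap. The shares in ST-HSCs and bulk-HSCs were thus near the background. Without the 2 sparse libraries, 7 of the 10 did not overlap in LT-HSCs (2 higher, 5 lower) beside 27.2% of all genes, and in ST-HSCs 2 did not overlap beside 30.3% of all genes. In LT-HSCs these were Ezh1 and Rnf2, higher in aged mice, and Ezh2, Eed, Suz12, Ring1 and Cbx2, lower. In ST-HSCs they were Rnf2 and Cbx7, higher in aged mice. Between LT-HSCs and ST-HSCs over both ages none of the 10 genes was free of overlap, while 1.04% of all genes were. For Ezh1 the overlap rested on young LT-HSC replicate 3, a sparse library. The share of all genes without that library was not computed. In the comparison of ST-HSCs with bulk-HSCs none of the 10 passed the test with edgeR or DESeq2, with 1 at an unadjusted p under 0.05 beside 891 of the 12808 genes, and 0.101% of all genes passed.

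Within a single age no fraction comparison called any of the 10 genes with edgeR. The share of all genes called was 0.429% for LT-HSCs against ST-HSCs, 0.273% for LT-HSCs against bulk-HSCs and 0.164% for ST-HSCs against bulk-HSCs in young mice, and 0.00781%, 0% and 0% in aged mice. Between 1 and 2 of the 10 had an unadjusted p under 0.05 in each of these, as did 1333, 1477 and 1234 of the 12808 genes in young mice and 437, 421 and 346 in aged mice, in the order above. In aged mice DESeq2 called Ezh1 in LT-HSCs against ST-HSCs and Cbx7 in LT-HSCs against bulk-HSCs (adjusted p = 0.00326 and 0.00248). Averaged over ages, DESeq2 called more of all genes than edgeR in both comparisons. The edgeR shares above are therefore no background for these calls.

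Paralogs were also compared as ratios of counts within a library, which no scaling between libraries can change. In aged LT-HSCs there were 5.08, 4.99 and 4.31 counts of Ezh1 for each count of Ezh2, and in young LT-HSCs 3.28, 2.40 and 1.63. The aged LT-HSC ratios lay above those of all other 15 libraries, whose highest was 3.91 in aged bulk-HSC replicate 3. In ST-HSCs the ratio ran from 1.53 to 3.26 in aged and from 1.16 to 2.93 in young mice, with overlap. In bulk-HSCs the ratio was 2.33 to 3.91 in aged and 0.747 to 2.16 in young mice, without overlap. The lowest ratio of the series, 0.747, belonged to young bulk-HSC replicate 3, the only library with more counts of Ezh2 than of Ezh1. Averaged over fractions, the log2 ratio was higher by 0.71 in aged mice, or 1.64-fold (two-sided exact permutation test of age labels within fractions, p = 0.0187, adjusted p = 0.075 over the 8 ratio tests). LT-HSCs exceeded ST-HSCs in it by 0.75 (exact permutation test within ages, p = 0.05, adjusted p = 0.1). Neither passed the adjustment.

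The ratio of Cbx7 to Cbx2 had 6.12, 5.55 and 4.70 counts of Cbx7 per count of Cbx2 in aged LT-HSCs and 3.78, 3.55 and 4.69 in young LT-HSCs. It was 3.31 to 4.89 in aged and 1.77 to 2.90 in young ST-HSCs, without overlap, and 2.51 to 3.12 and 2.45 to 3.98 in bulk-HSCs, with overlap. Its log2 value was higher by 0.37 with age (exact permutation test, p = 0.0288, adjusted p = 0.0767) and by 0.62 in LT-HSCs over ST-HSCs (exact permutation test, p = 0.01, adjusted p = 0.075). The ratio of Ring1 to Rnf2 differed by −0.33 with age and 0.25 between LT-HSCs and ST-HSCs (exact permutation tests, adjusted p = 0.382 and 0.566). The ratio of Cbx7 to Cbx8 differed by −0.82 and 1.65 (exact permutation tests, adjusted p = 0.602 and 0.387), values that rest on the 0 count of Cbx8 in young LT-HSC replicate 3: without the 2 sparse libraries they were 0.0046 and 0.15. The smallest p that the arrangements allow is 0.00025 for age and 0.005 for the fractions.

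**Figure D3:**
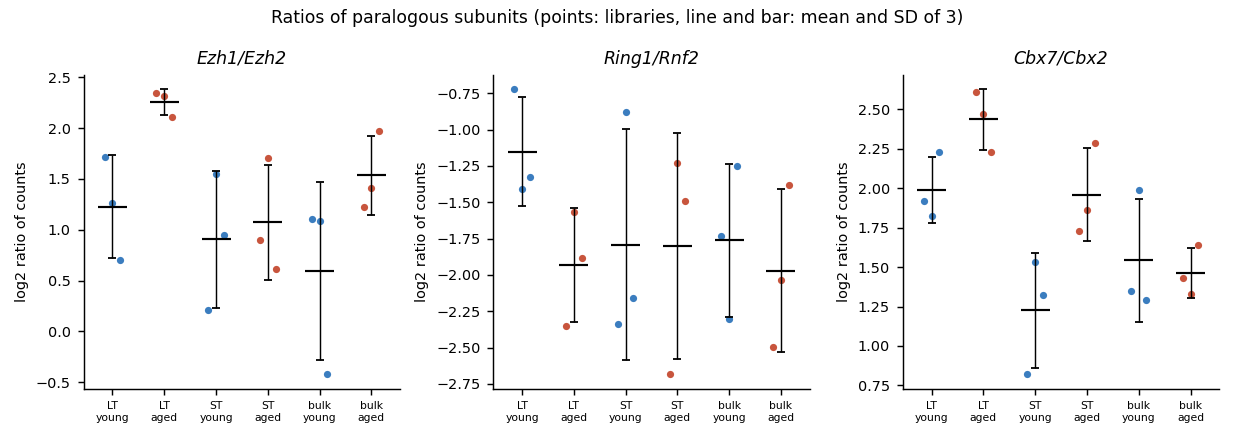
Log2 ratios of counts (vertical axes) of Ezh1 to Ezh2, Ring1 to Rnf2 and Cbx7 to Cbx2 in the 6 groups (horizontal axes), with libraries as points (young blue, aged red) and means with the SD of 3 libraries as lines and bars. The log2 ratio of Ezh1 to Ezh2 was 2.11 to 2.34 in aged LT-HSCs, above all other libraries.

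The genes whose levels ranked the 18 libraries most like each of the 10 were found by Spearman's rho among 9664 genes (9665 for Cbx8) that no library had below 10 counts, as a description without a test. Ezh2 was nearest to Mki67, a marker of cycling cells (rho 0.80), and to Srsf7, a splicing factor (0.80). Ezh1 was nearest to Pkhd1l1 (0.83) and Zcchc2 (0.80), Eed to Khsrp (0.80) and Tomm22 (0.78), and Suz12 to Cfap36 (0.76) and Nol9 (0.74). Among the PRC1 genes, Bmi1 was nearest to Zfp398 (0.85) and Tmem110 (0.84), Ring1 to Zfp90 (0.80) and Ganab (0.78), and Rnf2 to B330016D10Rik (0.80) and Mrps35 (0.79). Cbx7 was nearest to Usp45 (0.80) and H2-Q5 (0.78), Cbx8 to Ap4e1 (0.81) and Ipo13 (0.75), and Cbx2 to Zak (0.83) and Pcgf5 (0.82), itself a PRC1 subunit. The libraries share age and fraction, so such likeness is not independent of the groups.

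Values of 18 proliferation genes are given beside those of Ezh2, which itself passed no test. All 18 had log2 fold changes below 0 with age averaged over fractions, and 7 passed the test, with a list median of −0.59. Of the 12808 genes tested, 5798 were below 0 and 308 of these passed. Summed over the list, young libraries had 1132 to 2049 CPM and aged libraries 711 to 1536 CPM, with Mcm6, a subunit of the replicative helicase, as the highest gene. In LT-HSCs alone the sums were 711 to 1021 CPM in aged and 1132 to 1587 CPM in young mice, without overlap, as for Ezh2. All 18 were also below 0 between LT-HSCs and ST-HSCs, with 1 passing. In that comparison 6336 of the 12808 genes were below 0 and 35 of these passed. The part of cycling cells in the levels of Ezh2 was not tested, and in bulk samples fewer cells of a type and less RNA per cell cannot be told apart.

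Of the 8 listed accessory subunits of PRC2 none passed the test with age or between fractions averaged over ages (edgeR). The list median with age was 0.03, and 1 of the 8 had an unadjusted p under 0.05 in the comparison of ages. In that comparison 864 of the 12808 genes passed and 2519 had an unadjusted p under 0.05. Between fractions 104 genes passed for LT-HSCs against ST-HSCs, 25 for LT-HSCs against bulk-HSCs and 13 for ST-HSCs against bulk-HSCs. The smallest p with age belonged to Epop, a subunit that limits PRC2, listed as E130012A19Rik, with a log2 fold change of 1.16 (SE 0.52, adjusted p = 0.219), and to Mtf2, which recruits PRC2 to DNA, with 0.22 (SE 0.11, adjusted p = 0.279). Between LT-HSCs and ST-HSCs they belonged to Phf1, another recruiting subunit, with 0.54 (SE 0.23, adjusted p = 0.438), and Mtf2 with −0.28 (SE 0.14, adjusted p = 0.542).

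Among 23 further PRC1 genes, Phc3 rose and Bcorl1 fell with age averaged over fractions, and 7 of the 23 had an unadjusted p under 0.05. Of the 12808 genes tested, 556 rose and 308 fell, and 2519 had an unadjusted p under 0.05. Of all 23, these included, 11 were above and 12 below 0, with a median of −0.006. Phc3, a polyhomeotic subunit that can polymerize, had 155, 227 and 165 CPM in aged and 180, 72.2 and 134 CPM in young LT-HSCs. The ages overlapped there, but not in ST-HSCs (110 to 178 CPM in aged and 44.2 to 100.8 CPM in young libraries) or bulk-HSCs (83.5 to 173 and 54.8 to 64.4 CPM). For Phc3 the log2 fold change was 0.79 (SE 0.20, adjusted p = 0.0199), and its call was lost without aged ST-HSC replicate 2 (adjusted p = 0.0508). Bcorl1, a corepressor of variant PRC1, had 36.9 to 69.2 CPM in all aged and 59.3 to 109 CPM in all young libraries. Its log2 fold change was −0.66 (SE 0.13, adjusted p = 0.00555). Scml4, related to a PRC1 component of flies, had 40.4 to 42.6 CPM in aged and 13.3 to 21.4 CPM in young bulk-HSCs, a log2 fold change of 1.16 (SE 0.23, adjusted p = 0.0117). Scml4 also passed between LT-HSCs and bulk-HSCs over both ages, with 0.87 (SE 0.16, adjusted p = 0.0327), and in young mice alone, with 1.54 (SE 0.23, adjusted p = 0.00713). The call over both ages was lost in 7 of the 12 fits that left out 1 library (adjusted p up to 0.121). In LT-HSCs against ST-HSCs none of the 23 passed with edgeR, and 5 had an unadjusted p under 0.05, beside 1231 of the 12808 genes. The smallest p there belonged to Bcor, the paralog of Bcorl1, with −0.46 (SE 0.12, adjusted p = 0.114).

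Enzymes that remove Polycomb marks, and their partners, were listed as 15 genes. None passed with age (edgeR), 4 had an unadjusted p under 0.05, and 10 of the 15 were below 0 with a median of −0.08. Of the 12808 genes tested, 864 passed, 2519 had an unadjusted p under 0.05 and 5798 were below 0. Mbd6, a partner of the deubiquitinase Bap1, had −0.37 (SE 0.12, adjusted p = 0.0809) and Asxl1, its cofactor, −0.15 (SE 0.064, adjusted p = 0.197). Between LT-HSCs and ST-HSCs none passed, with 0 at an unadjusted p under 0.05, beside 104 and 1231 of the 12808 genes. The smallest p belonged to Usp22 with −0.21 (SE 0.11) and Bap1 with −0.13 (SE 0.11).

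Of 16 trithorax and SWI/SNF genes, which counter Polycomb silencing, 3 fell with age and none rose. Of the 12808 genes tested, 308 fell and 556 rose. Kmt2a, a histone H3 methyltransferase needed by HSCs, had 627 to 881 CPM in aged and 777 to 1152 CPM in young libraries and a log2 fold change of −0.36 (SE 0.077, adjusted p = 0.00778). Kmt2c, a relative, had −0.26 (SE 0.058, adjusted p = 0.00904) and Rbbp5, a subunit they share, −0.39 (SE 0.10, adjusted p = 0.0313). The call of Rbbp5 was lost in 8 of 18 fits that left out 1 library, with adjusted p up to 0.0708. In the list 14 of the 16 were below 0, as were 5798 of the 12808 genes. The list median was −0.15, beside 0.037 over all genes tested. For the fractions, LT-HSCs against ST-HSCs, none of the 16 passed and 1 had an unadjusted p under 0.05, beside 104 and 1231 of the 12808 genes. The smallest p of the list there was in Ash2l at −0.32 (SE 0.14, adjusted p = 0.456) and Men1 at 0.52 (SE 0.26, adjusted p = 0.548).

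**Figure D4:**
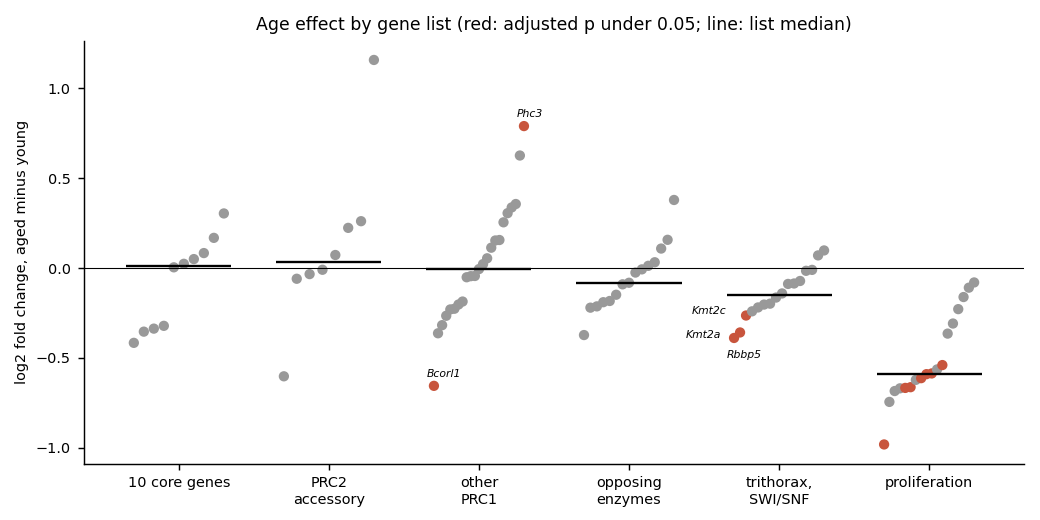
Log2 fold changes with age averaged over fractions (vertical axis) for every tested gene of 6 lists (horizontal axis), red where the adjusted p was under 0.05, with a line at each list's median. Medians were 0.014 for the 10 genes and −0.15 for the trithorax and SWI/SNF list, and −0.59 for the proliferation list, in which 7 genes are red.

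Of the 25 genes listed as known Polycomb targets, 21 had less than a mean of 1 CPM and were not tested. Among these were Cdkn2a, Ebf1, Pax5 and the developmental regulators. Of all 24421 gene symbols in the count table, 12808 reached that mean. The 4 targets tested were Lin28b, Hmga2, Igf2bp2 and Igf2bp3, genes of the fetal stem cell program. Igf2bp2, which binds RNA, fell with age. It had 59.6, 43.9 and 54.1 CPM in young and 19.0, 9.34 and 11.9 CPM in aged LT-HSCs, without overlap. In bulk-HSCs the young libraries had 39.6 to 48.2 CPM and the aged 14.3 to 23.05 CPM, and in ST-HSCs 16.1 to 21.9 CPM and 6.25 to 13.1 CPM, without overlap in either. Its log2 fold change with age was −1.39 (SE 0.19, adjusted p = 0.00016) averaged over fractions and −1.97 (SE 0.34, adjusted p = 0.0143) in LT-HSCs, where the call was lost without aged LT-HSC replicate 2 or 3 (adjusted p up to 0.0748). Igf2bp2 was also higher in LT-HSCs than in ST-HSCs, with 1.05 (SE 0.23, adjusted p = 0.0376) over both ages and 1.54 (SE 0.33, adjusted p = 0.0476) in young mice. These calls were lost in 8 of 12 and 5 of 6 fits that left out 1 library, and without the 2 sparse libraries (adjusted p = 0.108 and 0.201). Lin28b, an inhibitor of let-7 maturation, had counts in 6 of 9 young libraries, up to 288, and in 1 of 9 aged libraries, with 11 counts. It passed the test with age (adjusted p = 0.0277), but not without the 2 sparse libraries (adjusted p = 0.0696) or in 8 of 18 fits that left out 1 library, each of them aged. Hmga2, a chromatin protein, had a log2 fold change with age of −0.50 (SE 0.26, adjusted p = 0.311). Igf2bp3 had 7.34 to 12.4 CPM in aged and 0 to 22.003 CPM in young libraries, and a log2 fold change of 1.03 (SE 0.64, adjusted p = 0.709) between LT-HSCs and ST-HSCs.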

How the data were processed

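Total RNA of the 3 HSC fractions was sequenced as 127-base read pairs after ribosomal depletion (KAPA RNA HyperPrep with RiboErase). Per the study's methods and processing notes, the authors aligned reads to mm10 with HISAT2, used SAMtools 1.7 and StringTie 1.3.4d, and deposited whole-number counts per gene symbol, without normalization. How counts were derived from StringTie and whether strand was used are not given in the sources used here. Groups came from the sample labels, and all 18 libraries were used. Genes averaging 1 or more TMM-scaled CPM were tested with edgeR 4.0.16 (quasi-likelihood, 6 group means, 12 residual degrees of freedom) in R 4.3.3, with Benjamini-Hochberg adjustment over 12808 genes per comparison. The SE was derived from the log2 fold change and F. Ratios used 0.5 added to each count and exact permutation tests. DESeq2 1.42.0, limma 3.58.1 and other scalings, filters and samples served as alternatives. Transcript lengths, coordinates and overlaps came from GENCODE M21, and promoters from RefSeq. The 10 genes and all gene lists were chosen with earlier results of these data known. Named beside the 10 are list genes with an adjusted p under 0.05 in a reported comparison, the 2 smallest p of each chromatin or target list with age and between LT-HSCs and ST-HSCs, the highest gene of each marker or proliferation list, and the 2 nearest genes of each of the 10. Genes that overlap a member were added.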

Additional observations from a re-analysis of the deposited data

Results flagged for a closer look

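The age groups of Cbx7 lay apart in opposite directions in 2 fractions, although neither age effect passed (log2 fold changes of 0.22 in ST-HSCs and −0.14 in bulk-HSCs, with edgeR adjusted p = 0.703 and 0.790). Every aged ST-HSC library lay above every young ST-HSC library (79.8 to 93.1 against 71.6 to 79.3 CPM), and every aged bulk-HSC library lay below every young bulk-HSC library (64.1 to 67.4 against 67.7 to 75.8 CPM). In each case the gap between the groups was under 1 CPM, and 17.8% of all genes in ST-HSCs and 22.7% in bulk-HSCs were without overlap. The difference between the age effects was 0.36 on the log2 scale (SE 0.19) and did not pass its test (edgeR adjusted p = 0.930).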

How the results depend on the processing

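Leaving out the 2 libraries with the most genes at 0 was an alternative chosen after seeing the data; all others were planned. Of 727 log2 fold changes of the 10 genes under alternatives, 676 kept their direction and 652 also their side of the threshold. They cover the age effect averaged over fractions, and LT-HSCs against ST-HSCs and against bulk-HSCs averaged over ages. Only Ezh1 and Cbx7 were called there in the main fit, so most values began on the side that does not pass. In LT-HSCs against ST-HSCs 0 genes were called with the replicate block (Ezh1 0.62, adjusted p = 0.0519) and without the 2 libraries. In LT-HSCs against bulk-HSCs 0 were called with no filter, with limma-voom, with either replicate block and with only the groups compared. DESeq2 and limma-voom each called 1 in both comparisons within aged mice, where their shares of all genes called are not given here. Leaving out 1 library gave 0 to 1 called genes in these 2 comparisons averaged over ages and in the age effect. Same-numbered samples were not taken as pairs, since their deviations correlated between −0.054 and 0.136, with 2 of 18 pairs above 0.1. Both of these were LT-HSC with ST-HSC pairs. Every value between LT-HSCs and ST-HSCs was positive, from 0.011 to 0.136, so a weak pairing of these fractions is possible.

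The cause of the reversed values was not tested. With age, Suz12 was −0.0043 (library size alone), −0.025 (limma-voom) and −0.072 (without the 2 libraries), Rnf2 −0.024 (library size alone), −0.012 (RLE) and −0.011 (DESeq2), and Cbx8 −0.091 (without the 2 libraries). In LT-HSCs against ST-HSCs, Suz12 was 0.0049 (limma-voom) and 0.056 (without the 2 libraries), and Rnf2 0.024 (library size alone), 0.0050 (RLE), 0.0054 (DESeq2), 0.028 (limma-voom), 0.0039 (replicate block), 0.0066 (block within age) and 0.0077 (without the 2 libraries). In LT-HSCs against bulk-HSCs, Cbx8 was −0.20 (limma-voom) and −0.047 (block within age). The ratio of Cbx7 to Cbx8 with age was 0.0046 without the 2 libraries. With 1 library left out, values with age ran from −0.062 to 0.10 for Suz12, −0.045 to 0.054 for Rnf2, −0.11 to 0.27 for Cbx8 and −1.29 to 0.092 for the ratio of Cbx7 to Cbx8. In LT-HSCs against ST-HSCs they ran from −0.15 to 0.077 for Suz12, −0.0090 to 0.096 for Bmi1 and −0.061 to 0.075 for Rnf2, and against bulk-HSCs from −0.00041 to 0.12 for Bmi1 and −0.23 to 0.35 for Cbx8.

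Among fits that left out 1 library, the ratio of Ezh1 to Ezh2 with age passed in 3 of 18 (exact permutation tests, adjusted p up to 0.133). These left out young ST-HSC replicate 2, young bulk-HSC replicate 2 or aged ST-HSC replicate 3 (adjusted p = 0.036, 0.03 and 0.04). Between LT-HSCs and ST-HSCs, the ratios of Ezh1 to Ezh2 and Cbx7 to Cbx2 passed without young ST-HSC replicate 2 (adjusted p = 0.04 each). The latter also passed without aged ST-HSC replicate 3 (adjusted p = 0.04). These were 1 and 2 of 12 fits, with adjusted p up to 0.24 and 0.116. With age, Cbx7 to Cbx2 passed in 1 of 18 fits (adjusted p up to 0.14), the one without young bulk-HSC replicate 2 (adjusted p = 0.005). With 1 library left out, the log2 ratio of Ezh1 to Ezh2 differed by 0.54 to 0.82 with age and 0.58 to 0.92 between LT-HSCs and ST-HSCs, and that of Cbx7 to Cbx2 by 0.30 to 0.44 and 0.52 to 0.70. Over all genes, DESeq2 called 1494 with age against 864 in edgeR, and 394 against 104 between LT-HSCs and ST-HSCs. Between LT-HSCs and bulk-HSCs edgeR called 25, against 253 in DESeq2, 16 with at least 10 counts in every library, 7 in limma-voom, 12 and 14 with the replicate blocks and 6 with only the groups compared. Between ST-HSCs and bulk-HSCs these counts were 13, 172, 3, 2, 4, 2 and 2. Within LT-HSCs, ST-HSCs and bulk-HSCs the age effect had 57, 109 and 253 calls in edgeR, 290, 448 and 741 in DESeq2 and 9, 26 and 141 with only the groups compared. Cbx8 had the fewest counts of the 10 genes, 0 to 349, and whether depth limits it was not tested.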
